A study of Mus musculus with 8 samples.

Results

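Genes of the sarcomeric thin filament, 10 of the 20701 gene symbols in the deposited table, were followed in the outflow tract and right ventricle of mouse embryos. They were the troponin T genes Tnnt1 and Tnnt2, the troponin I genes Tnni1, Tnni2 and Tnni3, the troponin C gene Tnnc1, the tropomyosin genes Tpm1 and Tpm2, and the striated muscle actin genes Actc1 and Acta1. The genes were chosen by symbol, and where several transcripts shared a symbol the one with the largest average count was used. All 10 passed the filter on low counts and were among the 13769 genes tested.

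RNA was sequenced from outflow tract and right ventricle dissected together at E10.5, on the C57BL/6 background, with 1 embryo per library. The libraries came from 4 wild-type embryos (CTRL 1 to CTRL 4) and from 4 Isl1 hypomorphic embryos (Isl1-f;neo/f;neo, Isl1_hypo 1 to Isl1_hypo 4). Isl1 is a LIM homeodomain transcription factor of second heart field progenitors, which build the outflow tract and right ventricle. The allele is present in all cells of the embryo, so the comparison is not restricted to heart muscle or to a time window, and the libraries are of whole tissue that also holds endocardium, cushion mesenchyme and blood. The question put to these genes was whether the mRNAs of the calcium-regulated thin filament differed in level or isoform balance when Isl1 was reduced.

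The thin filament is a polymer of actin along which tropomyosin lies as a continuous coiled coil, with a troponin complex on each tropomyosin. Troponin C binds calcium, troponin I holds the complex in the inhibited state when calcium is low, and troponin T anchors the complex to tropomyosin. The embryonic heart makes the slow skeletal troponin I encoded by Tnni1 and later replaces it with the cardiac form encoded by Tnni3, while cardiac actin (Actc1) and skeletal actin (Acta1) are made side by side.

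Stretches of coding sequence are shown because the members are paralogs and their counts depend on how reads of related exons were assigned. The coding sequences of Actc1 and Acta1 were each 1134 bases long, 977 of those bases were identical (86.2%), and the longest exact run they shared was 29 bases. The troponin I genes were further apart. Tnni1 and Tnni3 were identical at 359 of 536 aligned coding bases (67.0%), with 21 bases as their longest shared run. Their most similar 90-base window lying in a single exon of both genes, in exon 8 of Tnni1 (chr1:137705283-137705372, plus strand, mm9) and exon 7 of Tnni3 (chr7:4471014-4471103, minus strand), held 25 differing bases, in capitals.
Tnni1: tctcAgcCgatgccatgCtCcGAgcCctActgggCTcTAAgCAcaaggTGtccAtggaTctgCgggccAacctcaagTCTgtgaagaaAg
Tnni3: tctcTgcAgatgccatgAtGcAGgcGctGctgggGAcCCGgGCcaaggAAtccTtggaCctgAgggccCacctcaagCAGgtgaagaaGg
Identity was 69.6% for Tnnt1 and Tnnt2 and 76.4% for Tpm1 and Tpm2, whose longest shared run was 35 bases.

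The promoters of the actin pair are shown because both genes were lowest in CTRL 1 and had higher means in Isl1_hypo, and those of Tnni1 and Tnni3 because theirs was the family ratio with non-overlapping groups. Tnni1 and Tnni2 were also lowest in CTRL 1 with higher means in Isl1_hypo, and no promoter of Tnni2 was listed. Each line is the 250 bases before the RefSeq start, taken from the GRCm38.p6 table and located by a unique exact match in mm9. Both strands were searched for 5 motifs, and matches stand in capitals. They were the CArG box, which serum response factor binds, and the TATA box, spelled TATAAA. The M-CAT element was searched as CATTCC. The GATA element was searched as AGATAA. An E-box was searched as CAGCTG, and no match overlapped another.
Actc1 (chr2:113878612-113878861, minus strand): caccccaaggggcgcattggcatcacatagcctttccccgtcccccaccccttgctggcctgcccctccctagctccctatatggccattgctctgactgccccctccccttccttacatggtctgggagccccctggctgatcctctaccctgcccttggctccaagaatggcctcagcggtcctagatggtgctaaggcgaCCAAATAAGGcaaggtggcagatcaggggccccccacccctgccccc
Acta1 (chr8:126418676-126418925, minus strand): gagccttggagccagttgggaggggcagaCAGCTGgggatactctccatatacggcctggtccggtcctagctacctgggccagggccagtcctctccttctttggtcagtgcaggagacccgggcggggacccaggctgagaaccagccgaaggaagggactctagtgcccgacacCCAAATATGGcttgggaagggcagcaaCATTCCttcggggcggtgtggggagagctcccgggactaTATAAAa
Tnni1 (chr1:137695748-137695997, plus strand): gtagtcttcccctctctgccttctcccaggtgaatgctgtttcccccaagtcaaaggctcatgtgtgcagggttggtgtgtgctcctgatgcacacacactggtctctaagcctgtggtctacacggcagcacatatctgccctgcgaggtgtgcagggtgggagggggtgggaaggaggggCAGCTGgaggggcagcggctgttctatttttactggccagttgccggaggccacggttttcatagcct
Tnni3 (chr7:4474131-4474380, minus strand): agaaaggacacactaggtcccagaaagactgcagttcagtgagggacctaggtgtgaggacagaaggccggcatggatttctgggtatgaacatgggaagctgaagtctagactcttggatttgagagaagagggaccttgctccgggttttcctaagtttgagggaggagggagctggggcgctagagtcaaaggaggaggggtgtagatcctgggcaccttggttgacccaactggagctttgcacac
Both actin promoters held 1 CArG box, which 1.5% of the 32851 promoters in the table hold. The Acta1 window also held a TATA box, an M-CAT element and an E-box, found in 12.4%, 12.6% and 13% of promoters. The Tnni1 window held 1 E-box and the Tnni3 window none of the 5 motifs, which says only that these letters were absent from it. A promoter was listed for 9 of the 10 members, and the GATA element, held by 3281 of the 32851 promoters, was found among them only in 1 window of Tnnt2.

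The genes lie in mm9 on 7 chromosomes, some as neighbours. Intervals and distances are those of GENCODE vM1. For some genes, such as Tnni1 and Tnnt2, the RefSeq start used for the promoter lies elsewhere than the start given here. Tnni1 (chr1:137679642-137707566) and Tnnt2 (chr1:137737452-137748837) stand 29.9 kb apart on the plus strand of chromosome 1. Tnnt1 (chr7:4456172-4467984) and Tnni3 (chr7:4469907-4475831) stand 1.9 kb apart on the minus strand of chromosome 7, with no coding gene between them. Tnni2 lies at chr7:149627713-149630315, Tnnc1 at chr14:32021498-32024915, Tpm1 at chr9:66870397-66897213, Tpm2 at chr4:43527583-43536637, Actc1 at chr2:113873018-113879284 and Acta1 at chr8:126415669-126418651. Reads were counted on both strands, and the span of an annotated gene on the other strand overlaps those of Tnnc1 (Nisch, at 650 CPM in CTRL), Actc1 and Acta1. The span of Tnni3 overlaps 6030429G01Rik on its own strand. Whether their exons overlap was not examined. Where they do, reads of the partners cannot be told apart.

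Library totals ran from 18422245 to 46678973 exon counts. Isl1 itself checked the labels: it was at 29.6, 61.5, 46.2 and 51.3 CPM (counts scaled to library size) in CTRL and at 12.7, 6.86, 7.71 and 11.4 CPM in Isl1_hypo. Its mean in Isl1_hypo was 20.5% of the CTRL mean (log2 fold change -2.29, adjusted p = 0.0077, edgeR quasi-likelihood test with Benjamini-Hochberg adjustment over all 13769 genes). CTRL 1 and Isl1_hypo 3 stood apart from the rest. The slope of a library's log2 level on log2 transcript length was 0.119 in CTRL 1 and -0.108 in Isl1_hypo 3, against -0.028 to 0.031 in the other 6. Isl1_hypo 3 also had the lowest mean level of the 13 cardiomyocyte markers (9.90 on the log2 CPM scale, against 10.2 to 10.6 elsewhere) and the highest share of globin counts (2.44%). Values without either library are given where leaving it out changed a member's log2 fold change by over 1.5 times.

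Between CTRL and Isl1_hypo, no thin filament member passed the adjusted threshold of 0.05. Of the 10, 6 had a higher mean in Isl1_hypo and 4 a lower mean, with a median log2 fold change of 0.12 beside 0.0057 over all genes tested. The edgeR test called 0 of the 10 members at the adjusted threshold, where it called 0.269% of all genes, and DESeq2 and limma-voom also called 0. At an unadjusted p under 0.05 it counted 1 member, Tnni3, where 11.9% of all genes passed. No member met the study's criterion of an unadjusted p under 0.05 with a change above 1.5-fold, met by 5.16% of genes, and no member had groups that did not overlap in CPM, as 8.5% of genes did.

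The members' levels spanned a wide range per length, and their order was the same in both groups. On the scale of CPM per kilobase of transcript, the means in CTRL ran from 14500 ± 1650 for Actc1 through 3860 ± 699 for Tnnc1, 2770 ± 321 for Tnni1, 2440 ± 164 for Tpm1, 1640 ± 396 for Tnnt2, 879 ± 195 for Acta1 and 576 ± 22.3 for Tnni3 to 90.5 ± 14.9 for Tnnt1, 49.6 ± 23.5 for Tnni2 and 24.5 ± 2.35 for Tpm2 (SD, n = 4). The ranges of neighbours overlapped in CTRL between Tnnc1 and Tnni1, Tnni1 and Tpm1, Tnnt1 and Tnni2, and Tnni2 and Tpm2. Cardiac and embryonic isoforms therefore stood at the top of each family, and the forms best known from skeletal muscle (Tnnt1, Tnni2) and Tpm2 at the bottom. All 10 members together took 3.06% to 4.00% of a library's counts, and Actc1 alone 1.86% to 2.68%. The members' share was 3.4% ± 0.254 in CTRL and 3.56% ± 0.299 in Isl1_hypo (SD, n = 4, exact 2-sided permutation p = 0.543). In whole tissue, fewer cells of a type and less RNA per cell cannot be told apart.

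**Figure D1:**
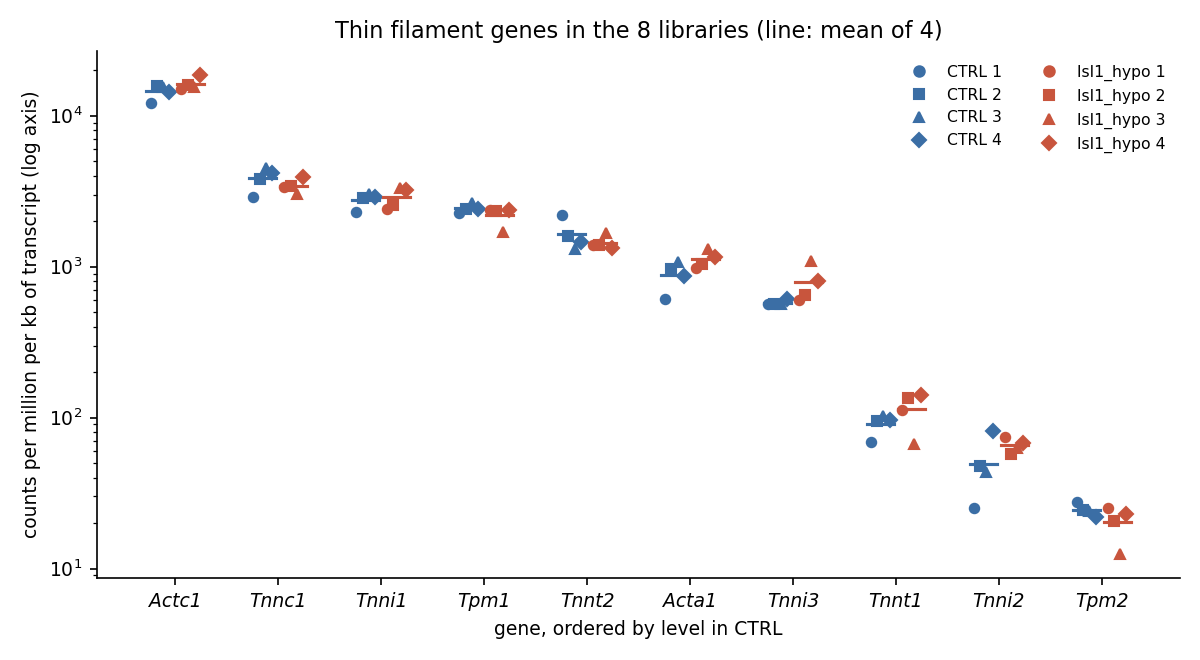
Level of each thin filament gene in each of the 8 libraries, as CPM per kilobase of transcript on a log axis, with genes ordered by their CTRL mean. Points are libraries (blue CTRL, red Isl1_hypo) and lines are group means; Actc1 lies between 12200 and 18700 in every library, Tpm2 between 12.5 and 27.5, and the groups overlap for each gene.

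Tnni3, which encodes cardiac troponin I, had the smallest p among the members. It stood at 458, 462, 461 and 496 CPM in CTRL and at 491, 532, 889 and 658 CPM in Isl1_hypo. The CTRL libraries lay within a narrow band, 3 of the 4 Isl1_hypo libraries lay above it, and the groups overlapped through Isl1_hypo 1 and CTRL 4. The log2 fold change was 0.45 ± 0.16 (SE, 95% interval 0.09 to 0.81), a 1.37-fold higher mean, with an unadjusted p of 0.018 and an adjusted p of 0.309 by the edgeR quasi-likelihood test. Without Isl1_hypo 3 the log2 fold change was 0.26 (unadjusted p = 0.0329 by the edgeR test). With the trend on transcript length removed from each library it was 0.37 (unadjusted p = 0.0237, adjusted p = 0.322, edgeR).

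The erythroid markers moved with the groups too. All 9 were higher in Isl1_hypo, with a median log2 fold change of 1.85, and their summed level ran from 2030 to 11900 CPM in CTRL and from 11900 to 25700 CPM in Isl1_hypo. Hba-a1 and Hba-a2 had identical values in every library. They are not separate measures, and the summed level and the globin share hold both. Epb42, a membrane skeleton protein of red cells, was called (means 2.12 and 10.4 CPM, log2 fold change 2.28, edgeR adjusted p = 0.0172), and the groups did not overlap for Hbb-y (log2 fold change 1.66, edgeR adjusted p = 0.191). A fit that also carried each library's globin level put Tnni3 at 0.18 on the log2 scale (unadjusted p = 0.515, edgeR). Globin took 0.535% ± 0.45 of counts in CTRL and 1.75% ± 0.536 in Isl1_hypo (SD, n = 4). The globin level thus ran largely with the group, and that fit called 0 of all genes. In the value of Tnni3, the parts of blood content and of genotype cannot be told apart here.

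Tnni1, the slow skeletal troponin I that predominates in the embryonic heart, was at 2470, 3080, 3240 and 3110 CPM in CTRL and at 2600, 2760, 3560 and 3480 CPM in Isl1_hypo. CTRL 1 was the lowest library and Isl1_hypo 3 the highest, with the groups interleaved. The log2 fold change was 0.06 ± 0.13 (SE, 95% interval -0.23 to 0.35, edgeR adjusted p = 0.893), and its sign turned under several settings, to -0.025 without CTRL 1 and -0.014 without Isl1_hypo 3.

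Tnni2, the fast skeletal troponin I, was low throughout, at 16.7, 31.5, 28.7 and 53.8 CPM in CTRL and 48.6, 37.8, 41.6 and 44.9 CPM in Isl1_hypo. The CTRL libraries included both the lowest and the highest of the 8. The log2 fold change of 0.40 ± 0.28 (SE) had an adjusted p of 0.582 in the edgeR test. Without CTRL 4, the highest CTRL library, the groups did not overlap and the log2 fold change was 0.75 (unadjusted p = 0.00531, adjusted p = 0.259, edgeR), whereas without CTRL 1 it was 0.18.

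Within the troponin I family, Tnni1 exceeded Tnni3 per length in every library, by less in Isl1_hypo. The ratio of Tnni1 to Tnni3 was 4.09, 5.05, 5.33 and 4.75 in CTRL and 4.01, 3.93, 3.03 and 4.01 in Isl1_hypo. Every Isl1_hypo library lay below every CTRL library, with Isl1_hypo 1, Isl1_hypo 4 and CTRL 1 close to the boundary and Isl1_hypo 3 lowest. The means were 4.80 ± 0.534 and 3.75 ± 0.478 (SD, n = 4), and the log2 difference was -0.36. The exact 2-sided permutation test gave p = 0.0286, the smallest that 4 libraries against 4 allow, and p = 0.143 after adjustment over the 5 ratios compared. Tnni3 made up 15.6% to 19.5% of troponin I counts per length in CTRL and 19.5% to 24.5% in Isl1_hypo, and Tnni2 at most 2.38% in any library.

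The ratio of Tnni1 to Tnni3 stayed lower in Isl1_hypo without any 1 library. It was not refitted with the globin level, a fit in which the log2 fold changes of Tnni1 and Tnni3 were -0.13 and 0.18. Leaving out Isl1_hypo 3 gave a log2 difference of -0.26 (exact permutation p = 0.0571) and leaving out both CTRL 1 and Isl1_hypo 3 gave -0.34 (exact permutation p = 0.1, the smallest for 3 libraries against 3). With the length trend removed the difference was -0.35 and the groups overlapped (exact permutation p = 0.0857). The ratio of Tnni2 to Tnni1 ran from 0.0110 to 0.0282 in CTRL and from 0.0191 to 0.0305 in Isl1_hypo, and overlapped (log2 difference 0.47, exact permutation p = 0.2). Without CTRL 4 the log2 difference was 0.72 (exact permutation p = 0.0286, adjusted p = 0.0714), and without CTRL 1 it was 0.27 (exact permutation p = 0.4).

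**Figure D2:**
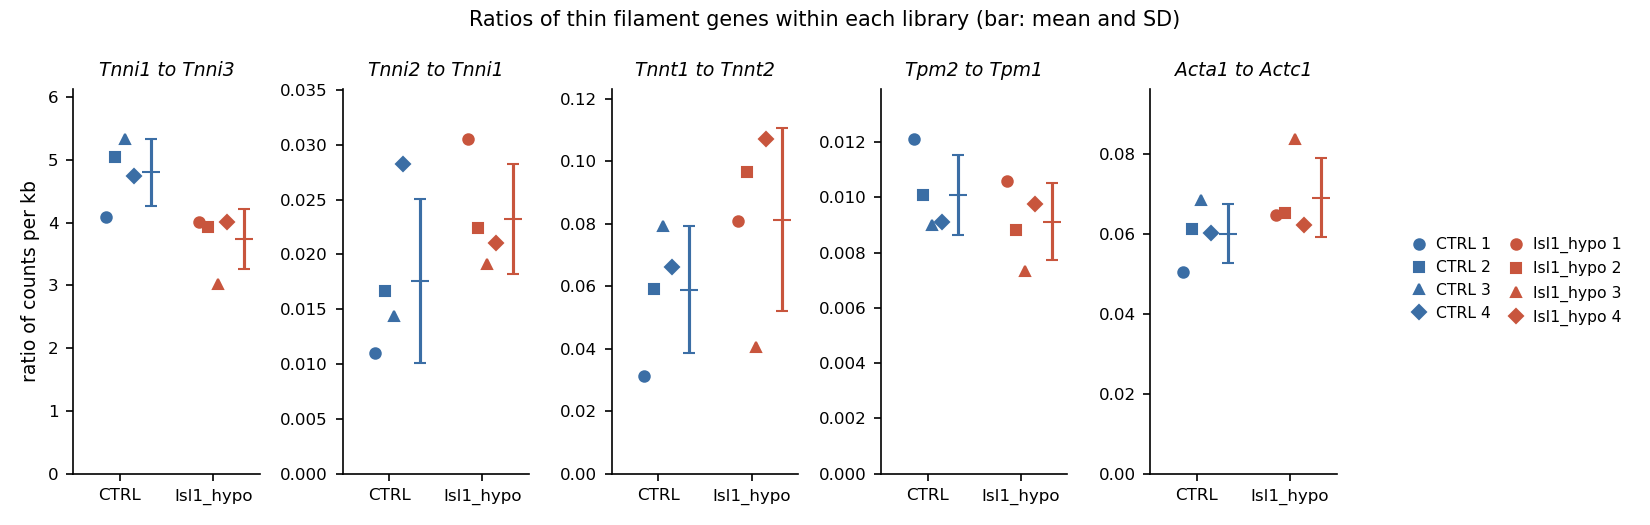
Ratio of counts per kilobase of transcript between members of each family, within each library (linear axes from 0). Points are libraries and bars give the mean and SD of 4 libraries; for Tnni1 to Tnni3 the 4 Isl1_hypo libraries lie at 3.03 to 4.01, below the CTRL libraries at 4.09 to 5.33, while the groups overlap in the other 4 ratios.

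Cardiac troponin T (Tnnt2) and slow skeletal troponin T (Tnnt1) did not pass the adjusted threshold, and the value of each turned on single libraries. Tnnt2 was at 2630, 1900, 1550 and 1730 CPM in CTRL and at 1670, 1670, 1980 and 1580 CPM in Isl1_hypo. CTRL 1 was the highest library by a wide margin, and the other 3 CTRL libraries lay within the range of Isl1_hypo or just below it. The fitted change was -0.18 ± 0.16 on the log2 scale (SE, 95% interval -0.52 to 0.16, edgeR adjusted p = 0.671). Without CTRL 1 it was -0.01 (unadjusted p = 0.926, edgeR), and without CTRL 3 it was -0.28.

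Tnnt1 was at 69.8, 95.8, 104 and 97.4 CPM in CTRL and at 115, 137, 68.1 and 144 CPM in Isl1_hypo. In Isl1_hypo, 3 of the 4 libraries lay above all CTRL libraries, and Isl1_hypo 3 lay below them all. Isl1_hypo against CTRL gave a log2 fold change of 0.34 ± 0.21 (SE, edgeR adjusted p = 0.551). Without Isl1_hypo 3 the groups did not overlap and the log2 fold change was 0.52, and without both CTRL 1 and Isl1_hypo 3 it was 0.41 (unadjusted p = 0.00183, adjusted p = 0.127, edgeR). It was 0.22 without CTRL 1 alone and 0.21 without Isl1_hypo 4 alone.

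The ratio of Tnnt1 to Tnnt2 was 0.0312, 0.0592, 0.0791 and 0.0661 in CTRL and 0.0810, 0.0966, 0.0405 and 0.107 in Isl1_hypo. CTRL 1 and Isl1_hypo 3 were the lowest of their groups, and the remaining Isl1_hypo libraries lay above every CTRL library. The log2 difference was 0.45 (exact permutation p = 0.343, adjusted p = 0.4). It was 0.17 without CTRL 1 (exact permutation p = 0.686) and 0.76 without Isl1_hypo 3 (exact permutation p = 0.0571). Without both of those libraries it was 0.48 with no overlap (exact permutation p = 0.1, the smallest possible).

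Troponin C (Tnnc1), the calcium sensor shared by cardiac and slow skeletal muscle, was at 2020, 2640, 3140 and 2920 CPM in CTRL and at 2360, 2380, 2110 and 2730 CPM in Isl1_hypo. CTRL 1 was the lowest library, while the other CTRL libraries lay at or above most of Isl1_hypo. On the log2 scale the difference was -0.16 ± 0.14 (SE, 95% interval -0.47 to 0.15, edgeR adjusted p = 0.673). It moved both ways with single libraries, to -0.28 without CTRL 1 (unadjusted p = 0.027, adjusted p = 0.449, edgeR), -0.11 without Isl1_hypo 3 (unadjusted p = 0.461, edgeR) and -0.08 without CTRL 3 (unadjusted p = 0.595, edgeR).

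Tpm1, the main tropomyosin of the heart, was at 2720, 2900, 3190 and 2870 CPM in CTRL and at 2870, 2790, 2040 and 2820 CPM in Isl1_hypo. All libraries but Isl1_hypo 3 lay between 2720 and 3190 CPM, and that library lay well below the rest. Its log2 fold change was -0.15 ± 0.12 (SE, edgeR adjusted p = 0.651), and -0.05 without Isl1_hypo 3.

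Tpm2, the tropomyosin known from slow skeletal and smooth muscle, was at 89.2, 79.5, 77.4 and 70.8 CPM in CTRL and at 81.8, 66.5, 40.4 and 74.5 CPM in Isl1_hypo. Isl1_hypo 3 was again the lowest library, and the rest of the groups overlapped. The fitted change was -0.27 ± 0.19 on the log2 scale (SE, edgeR adjusted p = 0.587), and -0.09 without Isl1_hypo 3. Tpm2 stood at 0.00898 to 0.0121 of Tpm1 per length in CTRL and 0.00732 to 0.0106 in Isl1_hypo (log2 difference -0.15, exact permutation p = 0.4). That difference was -0.05 without Isl1_hypo 3 and -0.06 without CTRL 1.

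**Figure D3:**
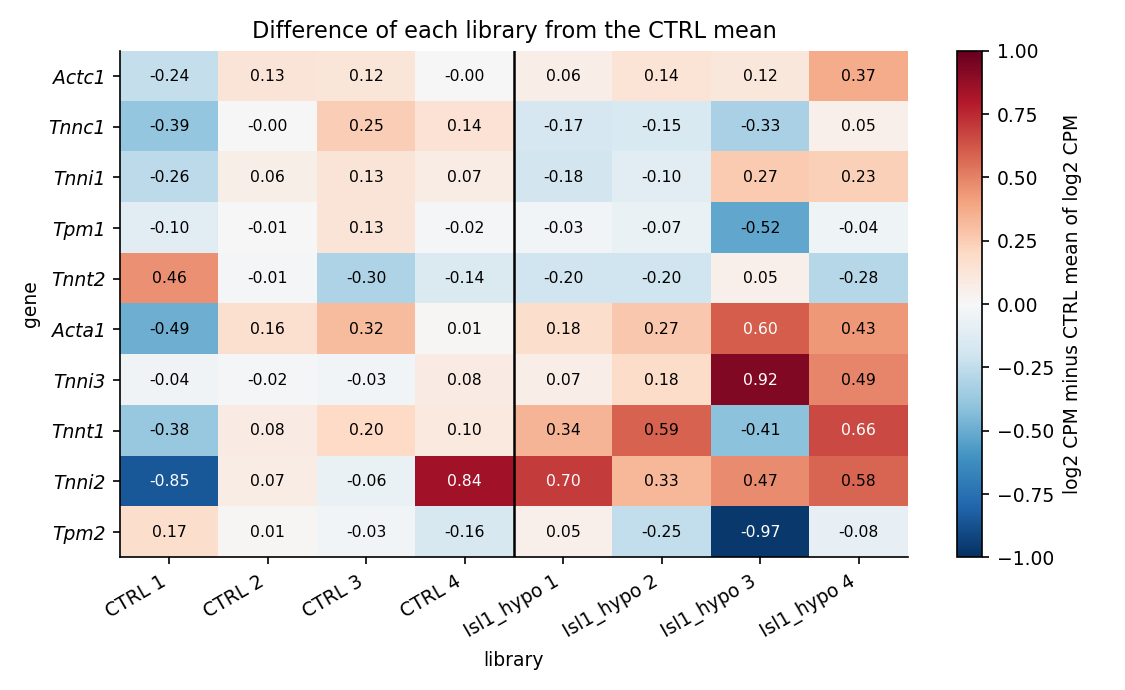
Difference of each library from the CTRL mean on the log2 CPM scale, for the 10 members (rows, ordered by level) in the 8 libraries (columns). Isl1_hypo 3 departs from the other libraries of its group at Tnni3 (0.92), Tpm2 (-0.97), Tpm1 (-0.52) and Tnnt1 (-0.41), and CTRL 1 from its group at Tnnt2 (0.46), Acta1 (-0.49) and Tnni2 (-0.85).

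Cardiac actin (Actc1) was the most abundant member, at 17700, 22800, 22700 and 20800 CPM in CTRL and 21800, 23000, 22700 and 27000 CPM in Isl1_hypo. CTRL 1 was the lowest and Isl1_hypo 4 the highest, and the other 6 libraries were mixed. Isl1_hypo against CTRL gave a log2 fold change of 0.17 ± 0.12 (SE, 95% interval -0.08 to 0.42, edgeR adjusted p = 0.579), and 0.09 without CTRL 1 and 0.10 without Isl1_hypo 4.

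Skeletal actin (Acta1) was at 959, 1510, 1670 and 1350 CPM in CTRL and at 1520, 1620, 2040 and 1810 CPM in Isl1_hypo. In Isl1_hypo, 2 libraries lay above every CTRL library and CTRL 1 lay far below the rest. On the log2 scale the difference was 0.35 ± 0.16 (SE, 95% interval -0.008 to 0.71), with an unadjusted p of 0.0545 and an adjusted p of 0.432 in the edgeR test. Without CTRL 1 it was 0.21, and without both CTRL 1 and Isl1_hypo 3 it was 0.13.

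Acta1 made up 4.80% to 6.41% of the 2 actins per length in CTRL and 5.86% to 7.72% in Isl1_hypo. The ratio of Acta1 to Actc1 was 0.0504, 0.0612, 0.0685 and 0.0603 in CTRL and 0.0647, 0.0653, 0.0837 and 0.0623 in Isl1_hypo. The groups overlapped, with CTRL 1 lowest and Isl1_hypo 3 highest (log2 difference 0.20, exact permutation p = 0.229). The log2 difference was 0.12 without CTRL 1, 0.10 without Isl1_hypo 3 and 0.02 without both.

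Read against Actc1 within each library, which takes out the share of myocardium to the extent that Actc1 stands for it, Tnnc1 was the member that separated the groups. Its ratio to Actc1 per length was 0.238, 0.242, 0.289 and 0.292 in CTRL and 0.225, 0.216, 0.194 and 0.211 in Isl1_hypo. All 4 Isl1_hypo libraries lay below all 4 CTRL libraries. The log2 difference was -0.32, with an exact permutation p of 0.0286 and an adjusted p of 0.257 over the 9 ratios. Without any 1 library it ran from -0.37 to -0.27 (exact permutation p = 0.0286 to 0.0857). Taken singly, Actc1 had a log2 fold change of 0.17 and Tnnc1 of -0.16, each with overlapping groups. The ratio thus holds a higher mean of Actc1 as well as a lower mean of Tnnc1. With libraries scaled to the cardiomyocyte markers instead, Tnnc1 had a log2 fold change of 0.07.

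Tpm1 to Actc1 was 0.186, 0.154, 0.170 and 0.167 in CTRL and 0.159, 0.146, 0.109 and 0.126 in Isl1_hypo, where 1 pair of libraries crossed (log2 difference -0.34, exact permutation p = 0.0571, adjusted p = 0.257). The 7 others had log2 differences from -0.48 for Tpm2 to 0.35 for Tnni2 with overlapping groups. Both of these moved with single libraries, Tnni2 to 0.15 without CTRL 1 and 0.63 without CTRL 4, and Tpm2 to -0.28 without Isl1_hypo 3. None of the 9 passed after adjustment.

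The members with several RefSeq transcripts gave one picture, since overlapping transcripts share most exon reads. The 9 transcripts of Tnnt2 had log2 fold changes from -0.18 to -0.17, the 10 of Tpm1 from -0.15 to -0.08, the 3 of Tpm2 from -0.28 to -0.26, and the 3 of Tnnt1 all 0.34. No transcript of a member passed the adjusted threshold in the edgeR test. Isoforms that differ in a single exon, such as the embryonic and adult forms of Tnnt2, cannot be separated by these counts.

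The rest of the thin filament was read from a list of 21 genes, of which 19 passed the filter (Tnnc2 and Tmod4 did not). In mean, 7 were higher and 12 lower in Isl1_hypo, with a median log2 fold change of -0.14, and the edgeR test called 0 of them at the adjusted threshold and 3 at an unadjusted p under 0.05. DESeq2 called 2 of them, Nrap and Actg2 (adjusted p = 0.0262 and 0.0372), and limma-voom 0. In 4 of them the groups did not overlap in CPM. Over all genes tested, 0.269% were called by edgeR, 11.9% had an unadjusted p under 0.05, 8.5% did not overlap, and DESeq2 called 330 of 17052, so that 3 of 19 at an unadjusted p under 0.05 was near the share of all genes.

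Among the anchoring proteins, Nrap, which ties actin to the membrane and helps assemble myofibrils, was at 32.8, 19, 23.4 and 20.9 CPM in CTRL and 15.1, 15.6, 14.2 and 14.8 CPM in Isl1_hypo. All Isl1_hypo libraries lay below all CTRL libraries (log2 fold change -0.69 ± 0.18, SE, unadjusted p = 0.00247, adjusted p = 0.177, edgeR). Neb, the giant filament ruler of skeletal muscle, was near the limit of detection and also did not overlap, with means of 0.833 and 0.424 CPM (edgeR adjusted p = 0.504).

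Among the other actins, smooth muscle Actg2 was at 13, 11.3, 16.8 and 17 CPM in CTRL and 10.2, 5.81, 4.30 and 9.37 CPM in Isl1_hypo. The groups did not overlap (log2 fold change -0.97 ± 0.28, SE, unadjusted p = 0.00437, adjusted p = 0.205, edgeR). Acta2, smooth muscle alpha actin and an early actin of the embryonic heart, had means of 5440 CPM in both groups, and Actb, a cytoplasmic actin, 5790 and 6190 CPM. The cytoplasmic actin gene Actg1 was listed at 5.54 and 3.76 CPM. How reads that fit several actin genes were counted is not given in the sources used here, so the levels of Actc1, Acta1, Acta2 and Actb carry the same uncertainty.

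Among the tropomyosins, Tpm3 had means of 96.9 and 130 CPM (log2 fold change 0.42 ± 0.15, SE, unadjusted p = 0.017, adjusted p = 0.306, edgeR) with overlapping groups, and Tpm4 472 and 421 CPM. Of the pointed-end caps, Tmod1, the form of striated muscle, had means of 448 and 391 CPM. Tmod3 was at 108 to 121 CPM in CTRL and 124 to 199 CPM in Isl1_hypo without overlap (log2 fold change 0.33 ± 0.15, SE, adjusted p = 0.431, edgeR).

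**Figure D4:**
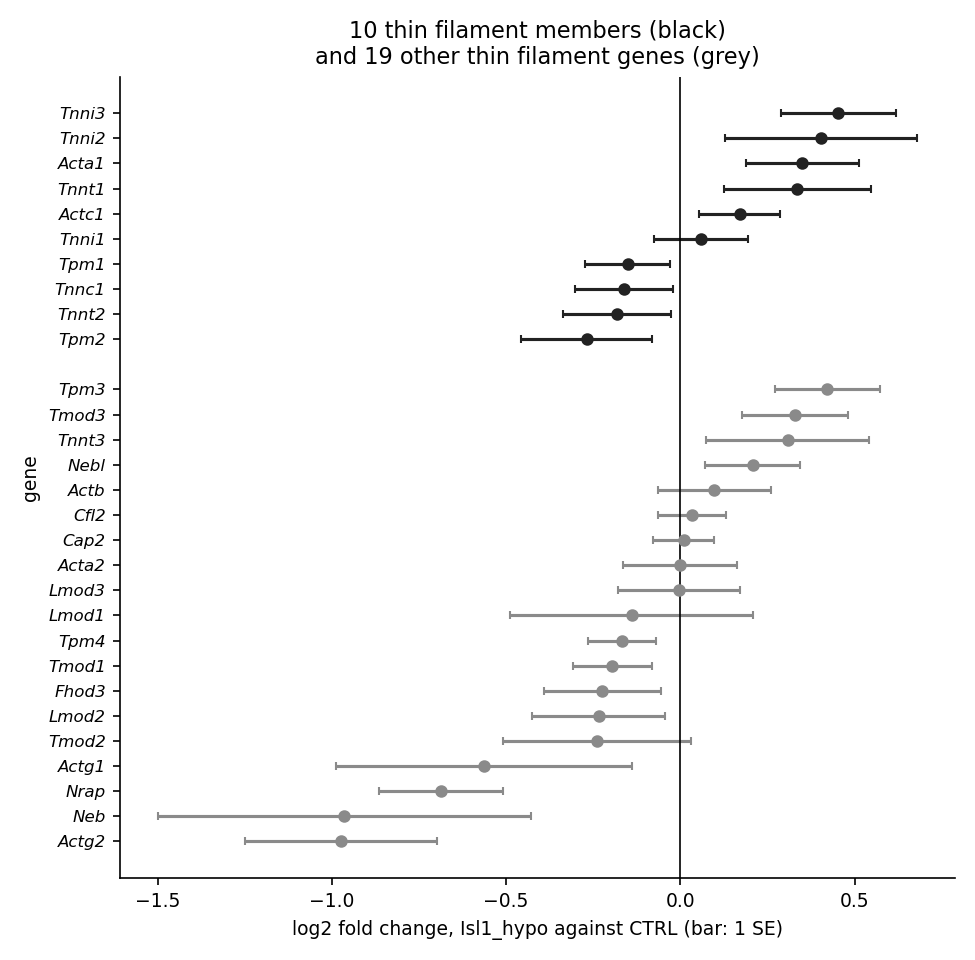
Log2 fold change of Isl1_hypo against CTRL with its standard error (bars) for the 10 members (black, top) and the 19 other thin filament genes tested (grey, below). The members run from -0.27 (Tpm2) to 0.45 (Tnni3), the other genes from -0.97 (Actg2) to 0.42 (Tpm3), and none passed the adjusted threshold in the edgeR test shown (DESeq2 called Nrap and Actg2).

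The labelled tissue was checked against its markers. All 13 cardiomyocyte genes were expressed, 9 with a lower mean in Isl1_hypo (median log2 fold change -0.18; edgeR called 0 at the adjusted threshold and 4 unadjusted). Their summed level ran from 29700 to 36900 CPM in CTRL and 25900 to 33600 CPM in Isl1_hypo. Scaling the libraries to these markers put the median log2 fold change of all genes at 0.24, against 0.006 without it, and put Tnni3 and Acta1 at 0.73 and 0.62, with groups that did not overlap. The share of all genes without overlap was not computed on that scale. There the means of Tnnt2, Tnnc1 and Tpm1 turned to slightly higher, and still no member passed the adjusted threshold.

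Myosin heavy chain Myh7 had a lower level in every Isl1_hypo library than in any CTRL library (means 4330 and 3080 CPM, log2 fold change -0.49, edgeR adjusted p = 0.165), as did Ttn (log2 fold change -0.90, edgeR adjusted p = 0.173). Both were called by DESeq2 (adjusted p = 0.0131 and 0.00636) and not by limma-voom. The groups did not overlap for the cardiac transcription factor Tbx20 either (log2 fold change -0.44, edgeR adjusted p = 0.283). The chamber myocardium markers were higher in mean in 7 of 7 (median log2 fold change 0.45), with Nppa called (1.13, edgeR adjusted p = 0.0303) and no overlap for Smpx and Pln (0.62 and 0.45, edgeR adjusted p = 0.0619 and 0.198). The outflow tract myocardium markers were lower in 6 of 6 (median -0.54), with Bmp4 and Fgf10 called and no overlap for Rspo3 (-0.67, edgeR adjusted p = 0.0688). The study names Fgf10 as a direct target of Isl1. For Fgf10, fewer outflow tract cells and less RNA per cell cannot be told apart. DESeq2 called Smpx, Pln and Rspo3 as well (adjusted p = 0.000341, 0.0352 and 0.00124), and limma-voom called 2 chamber and 3 outflow tract markers. The summed levels of both lists did not overlap between groups, at 1620 to 1930 CPM against 2510 to 2930 CPM for chamber markers and 736 to 871 CPM against 534 to 647 CPM for outflow tract markers. Their part in the Tnni1 to Tnni3 ratio was not tested.

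Tnnt1, Tnni2 and Acta1 are also genes of skeletal muscle. In the list of 13 skeletal markers, the skeletal determination genes Myod1, Myf5, Myf6, Myog and Pax7 were each at a group mean of 0.161 CPM or below, and 5 of the 13 genes passed the filter, with a summed list level of 55.8 to 95.8 CPM in CTRL and 79.2 to 106 CPM in Isl1_hypo. Of the 5 tested, 3 were higher and 2 lower in mean in Isl1_hypo (median log2 fold change 0.025). Mylpf, the fast skeletal regulatory light chain, had means of 63.8 and 76.3 CPM, and Actn3, a Z-disc protein of fast fibres, 5.17 and 8.76 CPM (unadjusted p = 0.0488, adjusted p = 0.418, edgeR). The myosin heavy chain genes Myh3 and Myh2 were lower, with log2 fold changes of -1.17 and -1.08 (edgeR adjusted p = 0.648 and 0.607). The part of these markers in the values of Tnnt1, Tnni2 and Acta1 was not tested. Smooth muscle markers were lower in mean in 6 of 6 (median -0.28) with overlapping sums, and none was called by edgeR, DESeq2 or limma-voom. Cushion mesenchyme markers were lower in mean in 5 of 6 (median -0.43), with overlapping sums and 0 called by any of those tools.

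Endothelial markers were lower in mean in 5 of 6 (median log2 fold change -0.37), and their summed levels did not overlap, at 643 to 750 CPM in CTRL and 492 to 631 CPM in Isl1_hypo. Pecam1 and Cdh5, both endothelial junction proteins, did not overlap (log2 fold changes -0.58 and -0.54, edgeR adjusted p = 0.17 and 0.241), and DESeq2 called Pecam1 (adjusted p = 0.0213). The part of endothelial cells in the members' values was not tested. Of the 5 atrial markers, 3 were higher, and 2 of these, Nr2f2 and Stard10, did not overlap (log2 fold changes 0.97 and 1.03, edgeR adjusted p = 0.173 and 0.205, DESeq2 adjusted p = 0.0156 and 0.0387). The atrial marker Sln, a regulator of the calcium pump, was lower, with means of 5.85 and 1.2 CPM (log2 fold change -2.28, edgeR adjusted p = 0.0172).

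The genes whose log2 CPM followed a member most closely over the 8 libraries were taken from 10733 others with a mean of at least 5 CPM, as a description only. For Tnni1 these were Myl7, the atrial light chain made throughout the embryonic heart (Pearson r = 0.974, n = 8), and Mrps28 (r = 0.969). For Tnnt2 they were Rexo4 and Acin1, for Tnnc1 Sars and Eif3c, for Actc1 Etf1 and Asb12, and for Acta1 Fig4 and Bloc1s5. Tpm1 was most like Vars and Trim62, with r of 0.986 and 0.981 that dropped to 0.900 and 0.895 without Isl1_hypo 3. With so many candidates and 8 libraries that share depth and length trends, high values arise readily. For Tnni3, Tpm2, Tnnt1 and Tnni2 the closest were Tamm41, Mknk1, Gtpbp4 and Cox16.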

How the data were processed

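RNA-seq of 4 CTRL and 4 Isl1_hypo libraries, made from polyA RNA of single embryos, was analysed. The authors aligned reads to mm9 with STAR and deposited exon counts per RefSeq transcript, made with HOMER on both strands without adjustment; how reads that fit several genes were treated is not given in the sources used here. The deposited RPKM values (edgeR, the authors) and the authors' mean signal, log2 fold changes, Wald score and p-value columns were not used. One transcript per symbol (highest mean count) was kept, filtered with filterByExpr, scaled by TMM and fitted with glmQLFit and glmQLFTest of edgeR 4.0.16 in R 4.3.3, without covariates. P-values were adjusted by Benjamini-Hochberg over all 13769 genes, with a threshold of 0.05. CPM per kilobase divides CPM by the deposited transcript length. Ratios were tested by exact permutation over 70 assignments. A prior count of 2 was used for log2 CPM. The edgeR test was checked on simulated counts. Alternatives used DESeq2 1.42.0, limma 3.58.1, other scalings, filters, covariates and left-out libraries; removal of the length trend (loess, span 0.5) and leaving out CTRL 1 with Isl1_hypo 3 were chosen after seeing the data. The members and gene lists were chosen with earlier results of these data known. All 10 members are named, with Isl1, list genes past the adjusted threshold or at an unadjusted p under 0.05 without overlap, other examples from the lists, and the closest genes by Pearson r. Coordinates and coding sequences come from GENCODE vM1 (mm9), promoters from RefSeq. A coding sequence window and a list gene are not reported here.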

Additional observations from a re-analysis of the deposited data

Results flagged for a closer look

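Of 46 sets of 4 libraries examined (each member, family ratio and ratio to Actc1, on the log2 scale, in each group), 6 held a library far from the other 3 by Dixon's ratio at its 95% critical value. Chance gives about 1 in 20, or 2.3 here.

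Isl1_hypo 3 accounted for 4 of the 6. Its log2 CPM of Tpm1 was 10.99 beside 11.44 to 11.49 in the other Isl1_hypo libraries. Its log2 ratio of Tnni1 to Tnni3 was 1.6 beside 1.97 to 2.004, its Acta1 to Actc1 was -3.58 beside -4.01 to -3.94, and its Tnni3 to Actc1 was -3.84 beside -4.64 to -4.53. This library also had the lowest slope on transcript length (-0.108) and the highest globin share (2.44%).

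In CTRL 1 the log2 ratio of Tpm2 to Actc1 was -8.79 beside -9.36 to -9.33, and in CTRL 4 the log2 CPM of Tnni3 was 8.96 beside 8.84 to 8.85, a gap that is large only against a very narrow spread. The part of RNA quality or of the dissected region in these values was not tested.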

How the results depend on the processing

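No member was called at the adjusted threshold under any of the 21 alternatives run. Of all genes, 37 were called, against 330 by DESeq2 and 134 by weighted limma-voom, while the replicate block and the globin covariate in edgeR left 0 (1582 and 499 unadjusted). Leaving out 1 library gave 4 to 48, with under 13 without CTRL 1, 2 or 3 or Isl1_hypo 2 or 4 (8, 5, 4, 12 and 11). Members at an unadjusted p under 0.05 numbered 2 with DESeq2, limma-voom or the replicate block (11.4%, 13.7% and 11.5% of all genes in those fits), 0 with the globin covariate (3.62%), 5 with scaling to cardiomyocyte markers (16%), 3 without CTRL 1 and Isl1_hypo 3 (11.6%), and 1 to 2 without any 1 library (9.26% to 13.8%). Members with non-overlapping groups numbered 2 with cardiomyocyte scaling, 2 without CTRL 1 and Isl1_hypo 3 (Tnnt1 and Tpm1), and 0 to 2 without any 1 library. The share of all genes without overlap was computed for the main fit only, where it was 8.5%. These counts therefore have no share over all genes in the same setting to be read against.

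The log2 fold change of Tnni1 reversed to -0.07 with limma-voom, -0.13 with the globin covariate, -0.002 with the length trend removed and -0.094 without CTRL 1 and Isl1_hypo 3, and ran from -0.025 to 0.133 without any 1 library. With the globin covariate Tnnt2 reversed to 0.017, Tnni2 to -0.238 and Tpm2 to 0.064, and with cardiomyocyte scaling Tnnt2 to 0.058, Tnnc1 to 0.07 and Tpm1 to 0.062. The log2 ratio of Tpm2 to Tpm1 reversed to 0.044 without CTRL 1 and Isl1_hypo 3. The cause was not tested. Tnni3 was higher in all 21, from 0.18 to 0.73.

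Replicate numbers were shared only in name: deviations of same-numbered libraries correlated at -0.021 to 0.022, and 1 of 4 correlated best with its own number. Under the pairing by number, the log2 ratio of Tnni1 to Tnni3 was -0.36 with an exact sign-flip permutation p of 0.125, the smallest that 4 pairs allow.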
